A study of Mus musculus with 384 samples.

Results

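CD8 T cells that carried transcripts of the cell division machinery were compared with CD8 T cells of the same tumours that carried few or none. A cell was called cycling when at least 4 of 12 cell cycle genes were detected at 1 FPKM or more (FPKM are fragments per kilobase of transcript and 1000000 mapped fragments). The 12 genes were Mki67, Top2a, Birc5, Ccna2, Ccnb2, Cdk1, Rrm2, Tyms, Tk1, Ube2c, Cenpf and Mcm5. A cell was called non-cycling when 0 or 1 of them was detected. The members were thus chosen by measured values of these 12 genes, and every other gene of the same cells is read with that in mind. Of 94 wells with 1 CD8 cell on each plate, 72 wild-type and 77 IL27raKO wells had 1000 or more detected genes and were kept. Among the kept CD8 cells 52 were cycling, 28 were non-cycling and 69 had 2 or 3 of the genes and entered neither class, so the members are 80 cells. The other kept cells of the series are 74 and 78 CD4 cells.

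The T cells came out of B16F10 tumours (a melanoma line that can be transplanted) in C57BL/6 mice and were profiled by Smart-seq2, a plate method that reads full-length transcripts and carries no molecular identifiers. One CD8 plate came from the wild-type source WT4 and the other from the source KO4, whose genotype label is IL27raKO, a knockout of the receptor gene of the cytokine IL-27. The 37 cycling and 10 non-cycling wild-type cells and the 15 cycling and 18 non-cycling cells labelled IL27raKO thus came from 1 source and 1 plate per genotype, so genotype, source and plate cannot be told apart, and p-values rest on the spread between plates. That WT4 and KO4 name 1 source each is a reading of the labels, which do not explain the numbers. The sample titles do not use the word plate, so taking each group of wells with a shared title as 1 plate is a reading too. A CD4 plate of each source, with 11 and 10 cycling and 15 and 26 non-cycling cells, served only to estimate the spread and for a comparison of cell types.

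As background, a T cell that has seen its antigen leaves quiescence when cyclins of the D type with CDK4 and CDK6 release E2F factors, which switch on genes of origin licensing, the replication fork and nucleotide synthesis. Genes of mitosis follow later in the cycle, under the MuvB and FOXM1 complexes. In tumours, dividing CD8 cells are often found among cells that carry co-inhibitory receptors, whereas cells with naive and memory genes such as Tcf7 and Il7r are mostly quiescent.

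The label cycling was checked against the 12 genes. In 17 of the 52 cells, 6 to 12 of the genes stood at 10 FPKM or more (median 11). In many of the other cells the label rested on few, mostly low values. In the 12 wild-type and 5 IL27raKO cells with 9 to 12 of the genes, Top2a was detected in 17 of 17 cells with a median of 539 FPKM, Mki67 in 15 and Birc5 in 17. Of the same 17 cells, Ccnb2 reached 10 FPKM in 13, Ube2c in 10 and Cenpf in 8. In the 27 cells with 4 or 5 of the genes, Top2a was detected in 10, Mki67 in 7 and Birc5 in 22, and 6 of these 22 reached 10 FPKM for Birc5. Birc5, Tyms and Ube2c were mostly detected at low values. Of all kept CD8 cells with Tyms, a gene of thymidylate synthesis, 70.3% had it between 1 and 10 FPKM, and Tyms was detected in 18 of 28 non-cycling cells. At least 2 of these 3 genes stood between 1 and 10 FPKM in 21 of the 27 cells with 4 or 5 genes. When the 12 genes were counted at 10 FPKM instead, 24 of the 52 cycling cells still had 4 or more. These values chose the cells and are given as a description.

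**Figure D1:**
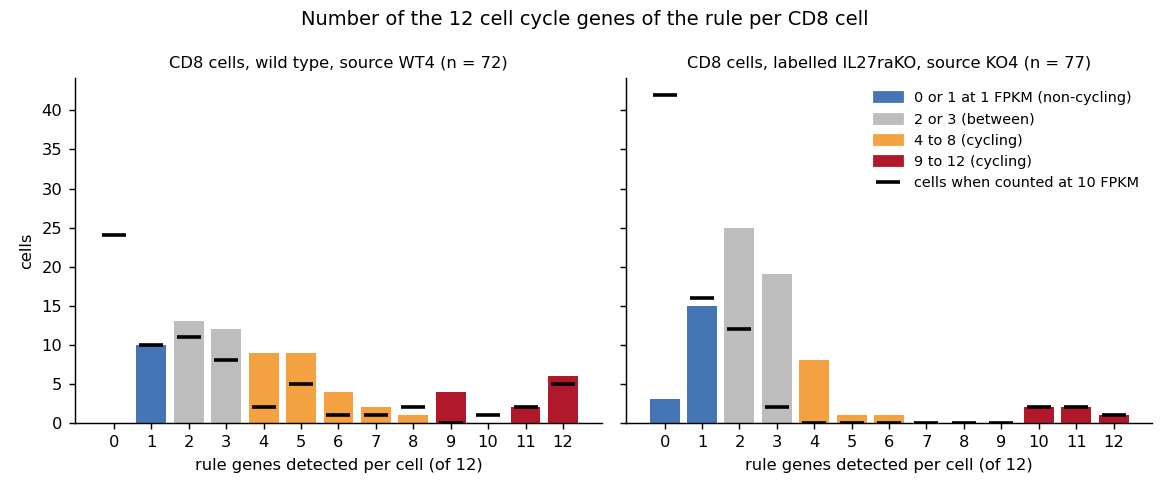
Number of kept CD8 cells (vertical axis) by the number of the 12 rule genes detected per cell (horizontal axis), in the wild-type plate and the plate labelled IL27raKO. Bars count genes at 1 FPKM or more, coloured by class, and black dashes count genes at 10 FPKM or more. In the plate labelled IL27raKO 0 cells have 7, 8 or 9 of the genes, while the wild-type counts run on, with 9, 4, 2, 1 and 4 cells at 5, 6, 7, 8 and 9 genes.

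Values across the thresholds were as follows. The 17 cells with exactly 4 of the genes had a median of 2727 detected genes and of 30 other cell cycle genes at 10 FPKM or more. The 31 cells with exactly 3 had medians of 2161 and 21. The 25 cells with exactly 1 had medians of 2165 and 19, and the 38 cells with exactly 2 had 2204 and 20. In the no-cell wells the 12 genes were listed at 0, and in the population wells of both CD8 plates they were all detected.

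Depth moved with the class. Cycling wild-type cells had a median of 3315 detected genes (lowest 1088, highest 5776) against 2118 (1615 to 3433) in non-cycling cells. In the plate labelled IL27raKO the medians were 3082 (2200 to 5525) and 2158 (1481 to 2587). Cells with 9 to 12 of the genes were the deepest, with medians of 4708 and 5165 genes, wild type and IL27raKO. Of the 52 cycling cells, 7 held more than 2-fold the median gene number of their plate, and of the other 97 kept CD8 cells 0 did. RNA of other cell types was also found in a larger share of cycling than of non-cycling cells, but did not rise steadily with the rule genes. At least 2 markers of a melanoma, myeloid, B, NK or stromal cell at 10 FPKM, or no CD3 or CD8 gene at that level, were found in 12 of 37 cycling and 2 of 10 non-cycling wild-type cells and in 3 of 15 and 2 of 18 cells labelled IL27raKO. Over both plates the share was 14.3% in non-cycling cells and 14.5% in cells with 2 or 3 rule genes. It was 37% with 4 or 5, 25% with 6 to 8 and 17.6% with 9 to 12. In the wild-type plate it was 32% in cells with 2 or 3 rule genes, beside 32.4% in cycling cells. Cells with 2 or more myeloid markers numbered 8 of 52 cycling and 0 of 28 non-cycling cells. Those with 2 or more melanoma markers numbered 7 of 52 and 4 of 28. Cd4 was detected in 0 of the 52 cycling cells. Cd8a was detected in 49 of 52 cycling and 23 of 28 non-cycling cells and Cd3e in 47 and 28. Il27ra, the gene named by the genotype label, was detected in 19 of 37 cycling and 6 of 10 non-cycling wild-type cells and in 11 of 15 and 12 of 18 cells labelled IL27raKO. Which exons were removed is unknown here, so these values do not check the label. Whether depth, doublets or RNA from other cells account for any difference below was not tested, and each result is given in ways that treat them differently.

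The same cells carried many further genes of division. Cell cycle genes outside the rule, from G1/S cyclins to the spindle, were counted in each cell at 10 FPKM or more as a share of their list. The 17 cells with 9 to 12 rule genes held between 56.4% and 79.8% of the list (median 67.4%). The 28 non-cycling cells held between 5.96% and 20.2% (median 8.94%), so these groups did not overlap. The 27 cells with 4 or 5 rule genes had a median of 14.2% (3.67 to 36.2), and the 69 cells with 2 or 3 had 9.63% (1.38 to 24.3). As a share of all genes at 10 FPKM or more in a cell, these genes made up a median of 3.56% in the cells with 9 to 12 rule genes (2.68 to 4.79) and 1.26% in non-cycling cells (0.68 to 1.74). In the wild-type plate 3 cells with 4 to 8 rule genes were as deep as the shallowest cell with 9 or more, which held 3874 detected genes. They held 20.6%, 22% and 31.2% of the list, under the lowest of 56.4% in the 12 cells with 9 or more. A wild-type cell just under this depth, with 3871 detected genes, 5 rule genes and RNA of another type, held 36.2%. In the IL27raKO plate the 1 other cell of comparable depth, with 3677 detected genes, held 19.3%.

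**Figure D2:**
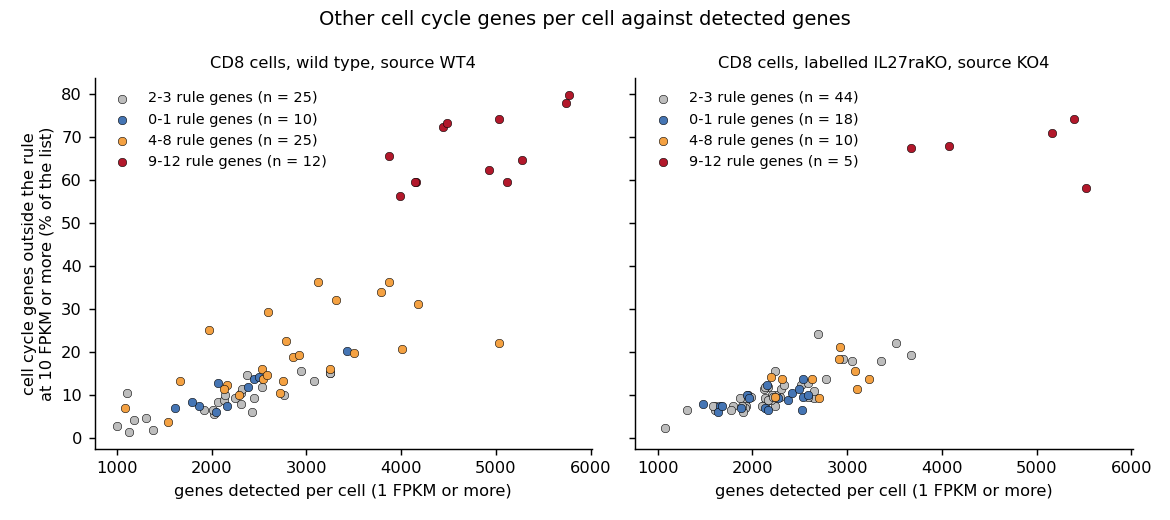
Cell cycle genes outside the rule at 10 FPKM or more (vertical axis, % of the list) against genes detected per cell (horizontal axis), 1 point per kept CD8 cell, coloured by the number of rule genes. The 17 cells with 9 to 12 rule genes lie at 56.4% or more and all other kept CD8 cells at 36.2% or less, including cells of similar depth.

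At matched depth no gene outside the rule passed the test. Cycling and non-cycling cells of a plate were paired on detected genes outside the cell cycle lists, which left 10 wild-type and 8 IL27raKO pairs, and the mean of log2(FPKM + 1) was compared over plates with limma. Of 8185 genes tested, 0 (0%) were called higher and 0 (0%) lower at a Benjamini-Hochberg adjusted p under 0.05, and the lowest adjusted p was 0.947. At an unadjusted p under 0.05 there were 3.47% of the genes. The pairing left out all 17 cells with the most rule genes, whose depth no non-cycling cell reached. With all cells and no matching the count was also 0, with a lowest adjusted p of 0.0709 and 2129 genes at an unadjusted p under 0.05, and the median of all genes was then shifted by 0.73 log2. On simulated differences for 8197 genes, 10% of 50 genes changed by 2 log2 and 74% of 50 changed by 8 log2 were recovered, so the test of 2 CD8 plates finds only very large changes.

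A planned regression on detected genes outside the cell cycle lists also kept all cells. Its list medians, wild type and IL27raKO, were 1.16 and -0.09 log2 for the fork and 0.31 and -0.13 for licensing. They were 0.36 and -0.10 for mitotic kinases, 0.52 and -0.16 for the kinetochore and 0.47 and -0.23 for the spindle. The tubulin medians were -0.21 and -1.15 log2. Because matching removes the clearest members, a further measure was added after seeing the data. The FPKM of each cell were scaled to a sum of 1000000, averaged over the class, and compared as log2(mean + 10). On this rescaled measure the median of all genes was 0.14 log2 in the wild-type plate and 0.03 in the plate labelled IL27raKO for cycling minus non-cycling cells. It is a description, with 0 genes past the threshold in limma (lowest adjusted p 0.350, 623 genes at an unadjusted p under 0.05). Values for genes listed at 0 in non-cycling cells depend on the added 10, so for these genes cell counts are given. Such genes entered the tested set through cycling cells alone, because the filter of 10% of cells pooled the classes. The shares of all genes given below rest on the same set.

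Genes of origin licensing load the MCM helicase onto DNA before S phase, and among them Mcm3 was found in all cells with 9 or more rule genes and in 1 of 28 non-cycling cells. Mcm3, a helicase subunit (chromosome 1, 20802968 to 20820312), was detected in 21 of 37 cycling wild-type cells (lowest 0, median 159.2, highest 1341 FPKM) and in 1 of 10 non-cycling cells, at 111.6 FPKM. In the plate labelled IL27raKO it was detected in 10 of 15 cycling cells (median 233.2, highest 1182 FPKM) and 0 of 18 non-cycling cells (exact 95% interval 0 to 18.5%). All 17 cells with 9 or more rule genes had Mcm3, from 95.9 to 1341 FPKM, while cycling and non-cycling cells overlapped at 0. Over the 10 and 8 depth-matched pairs the difference of Mcm3 was 1.72 and 3.75 log2 (mean 2.73, SE 0.93, adjusted p 0.947 by limma), so it was positive in both plates and not past the threshold. Mcm2 differed by 1.95 and 1.58 log2 over the same pairs and Cdt1, the loading factor, by 0.84 and 2.12. Of 18 licensing genes 2 were 1 log2 or more higher in both plates in matched cells, beside 3.98% of all genes. On the rescaled measure 7 of 18 were, beside 7.05% of all genes, with list medians of 1.48 log2 (wild type) and 1.00 (IL27raKO).

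Genes of the replication fork, which copy DNA, had higher rescaled values in cycling cells for most of their list. Rpa2, a subunit of the protein that coats single-stranded DNA (chromosome 4, 132768332 to 132778752), was detected in 20 of 37 cycling wild-type cells (median 182.5, highest 1367 FPKM) and 8 of 15 cells labelled IL27raKO (median 105.4, highest 753 FPKM). It was listed at 0 in all 28 non-cycling cells. In depth-matched pairs it was detected in 4 of 10 and 2 of 8 cycling cells, and its log2 differences were 3.90 and 2.07. Rfc2 and Rfc5, subunits of the clamp loader, had rescaled differences of 2.15 and 2.73 and of 3.26 and 2.30 log2, wild type and IL27raKO. Pcna, the sliding clamp itself, was chosen after its values were seen. It was detected in 4 of 10 and 6 of 18 non-cycling cells and in 27 of 37 and 12 of 15 cycling cells, so it did not mark the class by presence alone. Of 28 fork genes 17 were 1 log2 or more higher in both plates on the rescaled measure, beside 7.05% of all genes, with medians of 2.12 and 1.41 log2. In matched cells 5 of 28 were, beside 3.98%. The CD4 plates had rescaled medians of 1.10 and 1.40 log2 for these genes. Nucleotide synthesis genes outside the rule were less uniform, with rescaled medians of 0.28 and 1.01 log2. On the rescaled measure 3 of 24 were 1 log2 or more higher in both plates, beside 7.05% of all genes, and 1 lower, beside 2.43%. Dut, which keeps uracil out of DNA, differed by 2.20 and 1.60 log2 on that measure and by 2.96 and -0.62 log2, with opposite signs, in matched cells.

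Genes of mitosis differed on the rescaled measure, with list medians above 1 log2 in both plates, and had medians near 0 in matched cells. Stmn1, which destabilises microtubules (chromosome 4, 134468320 to 134473843), was detected in 25 of 37 cycling wild-type cells (lowest 0, median 287.5, highest 3844 FPKM) and 5 of 15 cycling cells labelled IL27raKO (median 0, highest 3119 FPKM). It was detected in 0 of 10 (0 to 30.9%) and 0 of 18 (0 to 18.5%) non-cycling cells and in 3 of the 69 cells between the classes. By number of rule genes, Stmn1 was found in 7 of 27 cells with 4 or 5, 6 of 8 with 6 to 8 and 17 of 17 with 9 to 12. Cks1b, a small partner of cyclin-dependent kinases, and Aurkb, a kinase of chromosome segregation, were chosen after their values were seen. Cks1b was detected in 20 of 37 and 5 of 15 cycling cells and Aurkb in 13 of 37 and 5 of 15, wild type and IL27raKO, and both were listed at 0 in all 28 non-cycling cells. Of 26 genes of mitotic kinases, cyclins and the anaphase-promoting complex, 17 were 1 log2 or more higher in both plates on the rescaled measure (medians 2.39 and 1.50 log2). In matched cells 1 was (medians 0.00 and 0.00). The shares of all genes were 7.05% on the rescaled measure and 3.98% in matched cells. For 25 kinetochore genes the rescaled count was 11 (medians 1.66 and 1.13) and for 24 spindle and cytokinesis genes 14 (medians 1.78 and 1.39), with 0 of either in matched cells. There 1 kinetochore gene, Incenp at -1.91 and -1.69 log2, was lower in both plates, beside 3.4% of all genes. Without cells holding RNA of another type the rescaled counts were 17 of 28 for the fork, 7 of 18 for licensing, 18 of 26 for the mitotic genes, 13 of 25 for the kinetochore and 17 of 24 for the spindle, beside 7.79% of all genes. When the rule genes were counted at 10 FPKM, the counts were 22, 13, 19, 16 and 17, beside 5.28%. In the CD4 plates the rescaled medians of the mitotic genes were 0.25 and 0.52 log2. The difference between CD8 and CD4 was itself tested in matched cells, and 0 of 8185 genes passed (350 at an unadjusted p under 0.05, limma).

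Of the 17 cells with 9 or more rule genes, 6, all wild type, had Ccnb1, Plk1 and Cdc20 together at 10 FPKM or more, genes of entry into and exit from mitosis. A further 3, also wild type, had none of the 3. These genes were chosen after their values were seen. The 6 cells carried 54 to 66 of 77 mitosis genes at that level and the 3 cells 26 to 30. The 3 genes that split the cells are genes of mitosis themselves, so this gap is partly set by the split. The depth of these cells was not compared. Replication genes were present throughout, with 20 to 44 of 49 licensing and fork genes per cell (median 37) against 0 to 9 (median 4) in non-cycling cells. Ccne1, the cyclin of S phase entry, was at 10 FPKM or more in 13 of the 17 cells and in 1 of 28 non-cycling cells. Among the cells split above it was found in 5 of the 6 and in 3 of the 3.

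Tubb5 and Hmgb2 were present in most cells of either class in the wild-type plate, with higher levels in the cells with most rule genes. Tubb5, a beta-tubulin gene, was detected in 37 of 37 and 15 of 15 cycling cells and in 10 of 10 and 16 of 18 non-cycling cells. Its median was 1234 FPKM (lowest 30.8, highest 12601) against 985 (155.9 to 1757) in the wild-type plate and 592 (32.2 to 13042) against 603 (0 to 1705) in the IL27raKO plate. The groups therefore overlapped. Cells with 9 or more rule genes had medians of 5883 and 6524 FPKM. In matched cells Tubb5 differed by -0.64 and -1.25 log2, the opposite sign to the rescaled 0.86 and 1.27. The 8 tubulin genes had matched medians of -0.66 and -0.80 log2. Of these 8, 0 were 1 log2 or more higher and 1 lower in both plates. Hmgb2, a DNA-bending chromatin protein, was detected in 35 of 37 and 12 of 15 cycling cells and in 6 of 10 and 9 of 18 non-cycling cells. Its differences were 1.65 and 1.68 log2 in matched cells and 1.94 and 2.04 rescaled. Of 31 condensin, cohesin and chromatin genes 10 were 1 log2 or more higher in both plates on the rescaled measure, beside 7.05% of all genes, with medians of 1.52 and 0.83. In cells with 9 or more rule genes the largest difference of all tested genes outside the rule, by the smaller of the 2 plates, was that of Hist1h2ao, a replication-dependent histone gene, with a mean of 4093 and 2771 FPKM there and 0 in non-cycling cells. It was chosen after its values were seen, and near-identical histone genes share its reads, so its identity is uncertain.

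**Figure D3:**
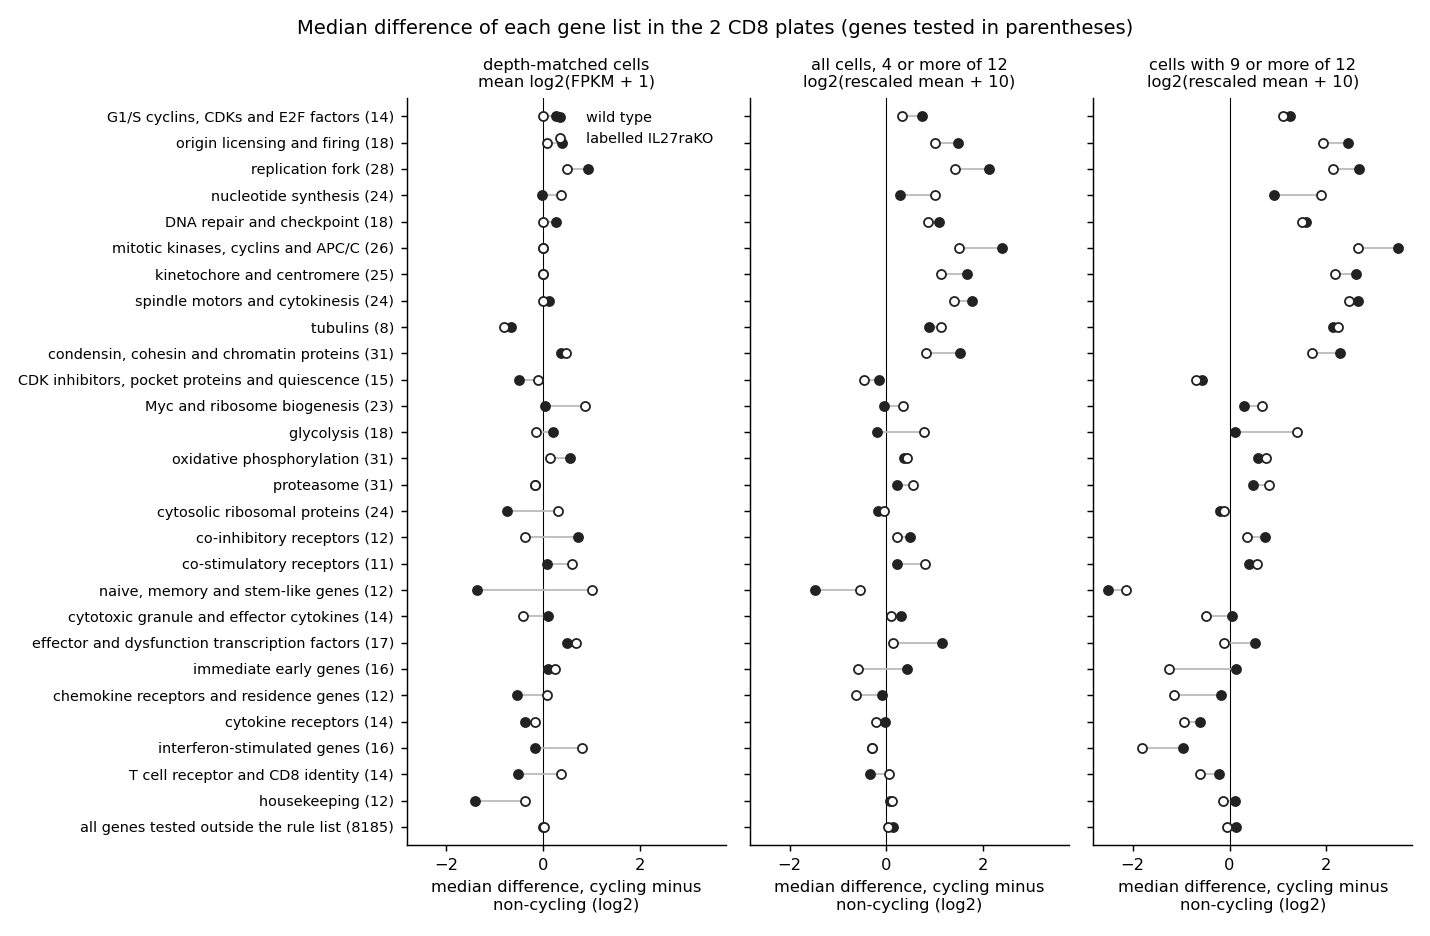
Median difference of each gene list, cycling minus non-cycling CD8 cells (log2), for the wild-type plate (filled) and the plate labelled IL27raKO (open). Panels are depth-matched cells on mean log2(FPKM + 1), all cells on the rescaled measure, and cells with 9 or more rule genes on the rescaled measure. The fork, licensing and mitosis lists lie between 0.00 and 0.92 in matched cells and between 1.92 and 3.48 in cells with 9 or more rule genes. These ranges differ in measure as well as in cells. On rescaled means the matched fork medians were 1.63 (wild type) and 0.25 (IL27raKO). Cytosolic ribosomal protein genes lie at -0.19 and -0.12 in cells with 9 or more rule genes.

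In cells with 9 or more rule genes the licensing, fork, mitosis and tubulin medians lay further from 0 than in all cycling cells on the rescaled measure. This is a description and did not hold for every list. Effector and dysfunction factors had medians of 0.53 and -0.11 log2, against 1.15 and 0.14 in all cycling cells. Counts of genes 1 log2 or more higher in both plates were 22 of 26 for mitotic kinases and cyclins, 21 of 28 for the fork, 12 of 18 for licensing, 19 of 24 for the spindle, 16 of 25 for the kinetochore and 6 of 8 for tubulins, beside 8.96% of all genes. Leaving out cells with RNA of another type gave 21, 22, 12, 19, 18 and 6, beside 9.69%. Cdk4, the kinase of early G1, was detected in 17 of 17 such cells (202.3 to 1392 FPKM) and in 3 of 10 and 5 of 18 non-cycling cells. Lists of growth and energy genes had smaller median differences. These were 0.59 and 0.75 log2 for oxidative phosphorylation, 0.49 and 0.81 for the proteasome and 0.31 and 0.67 for Myc and ribosome biogenesis. Glycolysis genes lay at 0.12 and 1.40. Housekeeping genes lay at 0.12 and -0.14.

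Genes of these lists were picked by their values in cells with 9 or more rule genes, not by their motifs. The promoters of 4 of them are shown, with motifs known from cell cycle genes marked. Each is RefSeq sequence of build GRCm38.p6 from 250 bases before to 50 bases after the start, written 5′ to 3′. The genes had the largest difference, by the smaller of the 2 plates, in their list in cells with 9 or more rule genes, for licensing, the fork, mitotic kinases and the spindle, among genes of the promoter table. Capitals mark CCAAT (bound by NF-Y), TTTGAA (the CHR element of late cell cycle genes) and the E2F core TTNNCGC with C or G at each N, each on either strand and searched separately, so that matches may overlap.
Mcm3 (chr1:20820263-20820562, minus strand): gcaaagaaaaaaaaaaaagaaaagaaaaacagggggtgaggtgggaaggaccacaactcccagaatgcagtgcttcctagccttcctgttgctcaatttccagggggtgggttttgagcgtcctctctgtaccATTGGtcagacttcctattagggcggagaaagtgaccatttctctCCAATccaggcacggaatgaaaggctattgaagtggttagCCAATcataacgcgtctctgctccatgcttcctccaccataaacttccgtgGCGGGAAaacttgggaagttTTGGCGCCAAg
Rpa2 (chr4:132768110-132768409, plus strand): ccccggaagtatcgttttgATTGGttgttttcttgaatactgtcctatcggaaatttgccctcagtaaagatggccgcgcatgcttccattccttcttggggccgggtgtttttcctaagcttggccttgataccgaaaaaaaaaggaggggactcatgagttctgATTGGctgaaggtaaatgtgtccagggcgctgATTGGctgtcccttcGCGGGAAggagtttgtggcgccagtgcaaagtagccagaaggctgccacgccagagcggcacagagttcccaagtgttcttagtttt
Cks1b (chr3:89418242-89418541, minus strand): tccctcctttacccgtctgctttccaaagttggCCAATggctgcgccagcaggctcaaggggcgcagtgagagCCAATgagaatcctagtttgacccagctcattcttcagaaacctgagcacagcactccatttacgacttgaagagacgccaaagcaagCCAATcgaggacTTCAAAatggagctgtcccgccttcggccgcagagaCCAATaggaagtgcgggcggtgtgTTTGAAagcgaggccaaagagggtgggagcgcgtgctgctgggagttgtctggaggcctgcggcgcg
Tacc3 (chr5:33657878-33658177, plus strand): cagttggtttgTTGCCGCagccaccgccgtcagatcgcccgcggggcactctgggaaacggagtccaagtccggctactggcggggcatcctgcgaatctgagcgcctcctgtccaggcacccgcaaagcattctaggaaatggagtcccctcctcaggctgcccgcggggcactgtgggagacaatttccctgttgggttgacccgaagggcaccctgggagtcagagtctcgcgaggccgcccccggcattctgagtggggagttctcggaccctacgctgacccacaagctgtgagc
Mcm3 held 3 CCAAT and 3 E2F core matches, with 2 of the latter overlapping on opposite strands. Rpa2 held 3 CCAAT matches and 1 E2F core, Cks1b 4 CCAAT and 2 TTTGAA, and Tacc3 1 E2F core. Il7r, picked for the naive and memory list as the gene most lowered, held 1 CCAAT match and none of the others, and is not printed.

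Over the whole lists the motif shares were as follows. Of 49 licensing and fork genes 39 matched the promoter table, with 49 promoters, and 61.2% of these held the E2F core, 57.1% CCAAT and 18.4% TTTGAA. Of 77 mitosis genes 61 matched, with 68 promoters, and 63.2% held TTTGAA, 73.5% CCAAT and 19.1% the E2F core. Over all 32544 promoters of the same length the shares were 9.64% for the E2F core, 37.4% for CCAAT and 17.8% for TTTGAA. In 20 promoters of cytosolic ribosomal protein genes they were 10%, 45% and 5%. A match is a string of letters and no evidence of binding.

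Of the co-inhibitory receptors, Lag3, Havcr2, Pdcd1 and Tigit were detected in a larger share of cycling than of non-cycling cells in both plates. For Tigit the shares were close in the plate labelled IL27raKO. Among these receptors, which restrain T cell responses, Lag3 (chromosome 6, 124904361 to 124911705) was detected in 32 of 37 cycling and 4 of 10 non-cycling wild-type cells, with medians of 556 and 0 FPKM. In the plate labelled IL27raKO it was detected in 8 of 15 and 3 of 18 cells, with medians of 68.5 and 0 FPKM. Havcr2, which encodes TIM-3, was detected in 24 of 37 and 3 of 10 wild-type cells and in 4 of 15 and 1 of 18 cells labelled IL27raKO. For Pdcd1, which encodes PD-1, the counts were 29 of 37, 5 of 10, 8 of 15 and 6 of 18 in the same order, and for Tigit 34, 6, 10 and 11. At least 3 of these 4 receptors were detected in 75.7% of cycling (58.8 to 88.2) and 40% of non-cycling wild-type cells (12.2 to 73.8), and in 40% (16.3 to 67.7) and 16.7% (3.6 to 41.4) of cells labelled IL27raKO. The intervals overlap within each plate, cover counting error only and take no account of the greater depth of cycling cells. In matched pairs Lag3 was detected in 9 of 10 cycling and 4 of 10 non-cycling wild-type cells and in 3 of 8 of each class labelled IL27raKO. Its matched differences were 3.05 and 1.24 log2 (mean 2.15, SE 1.32, adjusted p 0.947 by limma). Of 12 co-inhibitory genes 1 was 1 log2 or more higher in both plates in matched cells, beside 3.98% of all genes. In the same cells 1 was lower, beside 3.4%, which was Klrg1 at -2.08 and -1.07 log2, and the list medians had opposite signs, 0.73 and -0.37. On the rescaled measure 0 of 12 were 1 log2 or more higher in both plates, beside 7.05%, and 2, Klrg1 and Nt5e, were lower, beside 2.43%, with list medians of 0.49 and 0.23.

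Several transcription factors of activation and dysfunction had positive matched differences in both plates, and none passed the test. Nfatc1, a calcium-driven factor of T cell receptor signalling, was detected in 31 of 37 cycling wild-type cells (median 66.3, highest 283.7 FPKM) and 3 of 10 non-cycling cells (highest 10.3 FPKM). In the plate labelled IL27raKO the counts were 14 of 15 (median 94.6) and 7 of 18 (median 0, highest 220.6 FPKM). Its matched differences were 4.03 and 3.06 log2. Tox, a factor linked to exhausted T cells (chromosome 4, 6686353 to 6991557), differed by 2.72 and 2.90 log2 in matched cells, where it was detected in 6 of 10 and 4 of 8 cycling and 1 of 10 and 1 of 8 non-cycling cells. Of cells with 9 or more rule genes, 11 of 12 wild-type cells had Tox (median 363.5 FPKM), against 0 of 5 cells labelled IL27raKO (0 to 52.2%). Irf8 and Nr4a2 differed by 2.90 and 2.00 and by 2.13 and 2.17 log2 in matched cells. Of 17 genes of the list 5 were 1 log2 or more higher in both plates in matched cells, beside 3.98% of all genes. On the rescaled measure it was 4 of 17, beside 7.05%, and 2 of 17, beside 7.79%, without cells holding RNA of another type. In the cells with 9 or more rule genes it was 1 of 17, beside 8.96%, with medians of 0.53 and -0.11 log2, and with the rule genes counted at 10 FPKM it was 1 of 17, beside 5.28%.

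Genes of naive, memory and stem-like cells were detected in few wild-type cells with 9 or more rule genes, where Il7r was in 1 of 12 and Tcf7 in 1 of 12. In the plate labelled IL27raKO they were in 4 of 5 and 3 of 5 such cells. Il7r, the receptor of the survival cytokine IL-7 (chromosome 15, 9505788 to 9530176), was detected in 16 of 18 non-cycling cells labelled IL27raKO (median 448, highest 2091 FPKM) and 12 of 15 cycling cells (median 126.02, highest 1404 FPKM). In the wild-type plate it was detected in 2 of 10 non-cycling and 5 of 37 cycling cells. The matched differences of Il7r were -1.36 and -1.53 log2. Tcf7, a factor of stem-like T cells, was detected in 14 of 18 and 11 of 15 cells labelled IL27raKO and 2 of 10 and 5 of 37 wild-type cells, non-cycling and cycling, and its matched differences had opposite signs, -1.45 in wild type and 1.19 in IL27raKO. S1pr1, a receptor for exit from tissue chosen after its values were seen, was detected in 5 of 10 and 13 of 18 non-cycling cells, in 3 of 37 and 5 of 15 cycling cells and in 0 of 12 and 0 of 5 cells with 9 or more rule genes. In the cells with 9 or more rule genes 8 of 12 genes of the list were 1 log2 or more lower in both plates, beside 5.02% of all genes, with medians of -2.52 and -2.13, and 6 of 12 beside 4.72% without cells holding RNA of another type. With all cycling cells the count was 2 of 12, beside 2.43% of all genes, and also 2 of 12, beside 2.59%, without those cells. With the rule genes counted at 10 FPKM it was 9 of 12, beside 3.59%. In matched cells it was 1 of 12, beside 3.4%, with medians of -1.36 and 1.00. Of 16 interferon-stimulated genes 8 were 1 log2 or more lower in both plates in cells with 9 or more rule genes, beside 5.02% of all genes (medians -0.96 and -1.80). Without cells holding RNA of another type 4 of 16 were, beside 4.72%. With all cycling cells the rescaled count was 1 of 16, beside 2.43%, with medians of -0.29 and -0.30. The medians of these genes in matched cells were -0.17 and 0.81.

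**Figure D4:**
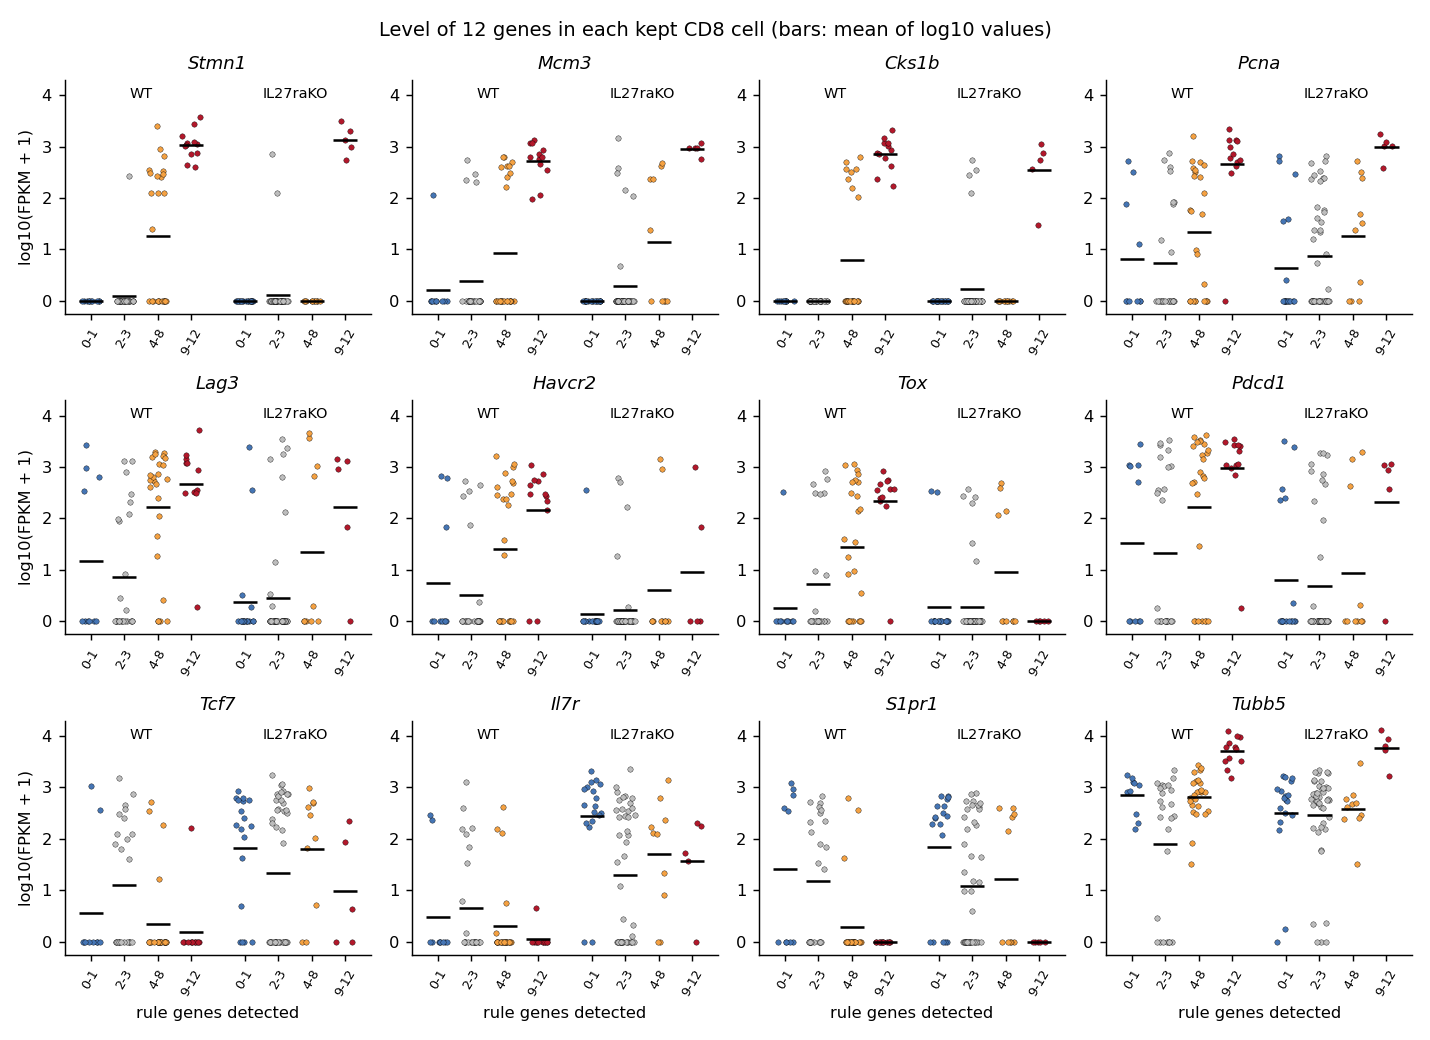
Level of 12 genes as log10(FPKM + 1) (vertical axes) in each kept CD8 cell by number of rule genes detected (horizontal axes), wild-type plate left and plate labelled IL27raKO right in each panel, with bars at the mean of the log values. Stmn1, Mcm3 and Cks1b are present in all 17 cells with 9 to 12 rule genes and S1pr1 in 0 of them, and Tox is present in 11 of 12 such wild-type cells and 0 of 5 labelled IL27raKO.

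Effector and identity genes gave no uniform picture. Gzmb, the granzyme B gene, was detected in 27 of 37 cycling and 7 of 10 non-cycling wild-type cells and in 6 of 15 and 5 of 18 cells labelled IL27raKO. Of 14 granule and effector cytokine genes 3 were 1 log2 or more higher in both plates on the rescaled measure, beside 7.05% of all genes, and 0 were lower, beside 2.43%. In matched cells 0 were higher, beside 3.98%, and 3 lower, beside 3.4%. Ccl3, a chemokine gene, was detected in 21 of 37 and 4 of 15 cycling cells and in 0 of 10 and 0 of 18 non-cycling cells. Its highest value of 45281 FPKM stood in 1 wild-type cell. Cd226, an activating receptor, had the largest mean matched difference among genes of the lists, -3.16 and -5.21 log2 (mean -4.18, SE 1.20, adjusted p 0.947 by limma). On the rescaled measure it lay at -0.65 and -1.55. Cd8a differed by 0.28 and -0.40 log2 and Cd3e by -2.42 and 1.07 in matched cells. Cd74 and H2-Eb1, class II antigen presentation genes of other immune cells, both stood at 9000 FPKM or more in 3 of the 52 cycling cells and were chosen after their values were seen. Cd74 was detected in 8 of 37 and 2 of 15 cycling cells and in 0 of 28 non-cycling cells. Without cells holding RNA of another type its rescaled difference in the IL27raKO plate was 0.01 log2, against 6.10 with them.

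Cycling cells made up 51.4% of kept wild-type CD8 cells (37 of 72, exact 95% interval 39.3 to 63.4) and 19.5% of those labelled IL27raKO (15 of 77, 11.3 to 30.1). With 1 plate per genotype this difference could not be tested, and depth differed between the classes. Among cells with 1000 to 2000 detected genes the shares were 28.6% (4 of 14, 8.4 to 58.1) and 0% (0 of 22, 0 to 15.4). Among cells with 2000 to 3000 detected genes the shares were 36.4% (12 of 33, 20.4 to 54.9) and 16.3% (7 of 43, 6.8 to 30.7). Among deeper cells they were 84% (21 of 25, 63.9 to 95.5) and 66.7% (8 of 12, 34.9 to 90.1). In each of the 3 bands the wild-type share was higher and the intervals overlap, while the intervals over all kept cells do not. Overlap of intervals is no test, and whether depth accounts for the difference was not tested. Cells with 9 or more rule genes made up 16.7% (12 of 72, 8.9 to 27.3) and 6.49% (5 of 77, 2.1 to 14.5), and in the CD4 plates they numbered 2 of 74 and 1 of 78.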

How the data were processed

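Smart-seq2 libraries (21 PCR cycles, per the labels' protocols) were made in 384 wells, read here as 4 plates. The values analysed are FPKM as deposited by the authors for 23420 genes. The submitters' processing notes name Bowtie, RSEM and build mm10, without tool versions among the sources used here. The deposited description speaks of TMM normalisation of the FPKM. RSEM shares reads between near-identical genes, so single histone and tubulin genes are uncertain. No counts or molecular identifiers were used here, so sampling depth per gene is unknown, and intervals (exact binomial, 95%) cover counting error over cells only.

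The members, gene lists and tests were chosen with earlier results of these data known. Wells with 1000 or more genes at 1 FPKM were kept. Cycling and non-cycling cells were paired within a plate on detected genes outside the cell cycle lists, to within 0.25 log2. The mean difference of log2(FPKM + 1) per plate was tested over the 4 plates with limma 3.58.1 in R 4.3.3, with Benjamini-Hochberg adjustment. The genes tested were at 1 FPKM in 10% or more of the pooled cycling and non-cycling CD8 cells. Cycling cells are more numerous, so this filter lets in genes found only in them more readily than genes found only in non-cycling cells. Cells are not replicates. Scaled means, cells with 9 or more rule genes, counting at 10 FPKM and leaving out cells with RNA of other types were added after seeing the data. Cells were not screened with a doublet caller. The test was checked on simulated data. Named genes are the 12 of the rule, up to 4 per list with the largest matched difference, and 10 fixed genes, with others said to be chosen after their values were seen. Since no gene was called, none was named for being called. Of the genes picked from the lists, 1 is not reported here. Gene positions are from GENCODE M21 (GRCm38). Figures were drawn with matplotlib 3.10.9.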

Additional observations from a re-analysis of the deposited data

Results flagged for a closer look

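In 2 gene lists the median matched difference had 1 sign in both CD8 plates and the other sign in both CD4 plates. The difference between the cell types was not tested for the lists. For 31 proteasome genes, which encode the protein-degrading complex, the medians were -0.16 and -0.18 log2 in CD8 cells, wild type and IL27raKO, and 0.30 and 0.78 in CD4 cells, a CD8 minus CD4 value of -0.706. For 14 cytokine receptor genes the medians were -0.38 and -0.16 in CD8 cells and 0.27 and 0.19 in CD4 cells, a CD8 minus CD4 value of -0.5. On the rescaled measure these opposite signs were not seen. The proteasome medians were 0.23 and 0.55 in CD8 and 0.23 and 0.39 in CD4 cells, and the cytokine receptor medians were -0.02 and -0.22 in CD8 and -0.04 and -0.61 in CD4 cells.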

How the results depend on the processing

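Under each of the 21 alternatives fitted, 0 genes were called higher and 0 lower by limma. Genes at an unadjusted p under 0.05 numbered from 190 (filter of 25% of cells, 4693 genes tested) to 2129 (all cells unmatched), and were at most 415 when 1 plate was left out. The number of the 28 lists whose median was 1 log2 or more higher in both plates was 0 in matched cells. It was 16 in all cells unmatched, 1 when matched on estimated reads, 4 with rescaled means, 6 with rescaled means without cells holding RNA of another type, 9 with 9 or more rule genes and 8 with rule genes at 10 FPKM. Lists 1 log2 or more lower numbered 1 with 9 or more rule genes and 1 at 10 FPKM, against 0. The share of cycling cells was 26.4% (wild type) and 6.49% (IL27raKO) at 10 FPKM, 26.4% and 7.79% with 6 or more rule genes, 68.1% and 44.2% with 3 or more, and 16.7% and 6.49% with 9 or more. The ratio of detected genes, cycling to non-cycling, was 2.08 at 10 FPKM, 2.31 with 9 or more and 1.59 without cells holding RNA of another type. Of 3908 pairs of a named gene outside the rule and an alternative, 330 had the other sign and 0 passed the threshold. The cause of these changes was not tested. The comparison of 6 or more against 0 rule genes, and leaving out every cell with 10 FPKM of any marker of another type, left too few cells and could not be fitted. A replicate block by source, which pairs the CD8 and CD4 plates of a source and was chosen after seeing the data, had 1 residual degree of freedom and gave 0 genes called in CD8 cells (lowest adjusted p 0.98 by limma) and 0 called for CD8 against CD4.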

Other observations

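Among further genes, chosen after their values were seen, Asf1b, a histone chaperone that hands histones to new DNA, was detected in 12 of 12 wild-type and 4 of 5 IL27raKO cells with 9 or more rule genes and in 0 of 10 and 1 of 18 non-cycling cells. Cdc45, a part of the replicative helicase, was detected in 11 of 12 and 4 of 5 of these cells and in 0 of 28 non-cycling cells. Nusap1, a spindle protein, was detected in 10 of 12 and 4 of 5, and Spc25, a kinetochore subunit, in 9 of 12 and 4 of 5, both with 0 of 28 non-cycling cells. Lower in the same cells was Slfn1, of the Schlafen family, detected in 3 of 12 and 1 of 5 against 5 of 10 and 11 of 18 non-cycling cells.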
